A study of Arabidopsis thaliana with 12 samples.

Results

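The genotype by metal interaction describes, for each gene, how far the effect of the slim1-1 mutation differed between seedlings on cadmium and seedlings on arsenite. It was computed as the slim1-1 minus wild-type difference under cadmium, less the same difference under arsenite, on the log2 scale. A positive value therefore means that slim1-1 stood higher relative to wild type on cadmium than on arsenite, and a negative value the reverse. Of 13356 genes tested, 574 passed an adjusted p of 0.05 for this value in limma, and these genes, called here, are the members described below.

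RNA of whole 14-day-old Arabidopsis thaliana seedlings was hybridised to 12 one-colour Affymetrix arrays, 3 biological replicates in each of 4 groups. The groups were Col-0 wild type on 20 uM As(III), slim1-1 on 20 uM As(III), Col-0 on 100 uM Cd and slim1-1 on 100 uM Cd, all grown on minimal medium. The labels describe 12 days without metal and 48 h on As(III), and repeat that sentence for the cadmium samples, so the cadmium exposure time rests on that wording. Every group was under metal and no metal-free group was analysed here, so the interaction sets one metal against the other and not a metal against no metal. The mutation is represented by the single allele slim1-1.

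SLIM1 is an EIN3-like transcription factor that directs the response of Arabidopsis to sulfate shortage. Sulfur matters under arsenite and cadmium because plants bind both metals with thiols, in glutathione and in the phytochelatin peptides made from it. Genes that respond to sulfur supply, to misfolded protein and to reactive compounds are among those that metal stress is known to change. The gene for SLIM1 itself was not among the genes that a probe set named alone, so its level was not analysed here.

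The 574 called genes were 4.3% of those tested, with 293 positive (2.19%) and 281 negative (2.1%). The genotype difference passed the same threshold for 1646 genes under cadmium (12.3%) and for 140 genes under arsenite (1.05%). The interaction and the pair of genotype differences come from the same arrays, so the sorting of called genes that follows is a description with no test. In 451 called genes (78.6%) the genotype difference was called under cadmium alone, in 46 under arsenite alone, in 9 under both metals in opposite directions, and in 68 under neither. None of the 30 genes called under both metals in the same direction was called for the interaction. In all, 1186 genes were called under cadmium but not for the interaction, these 30 included, and for the 1186 no difference between the metals is shown. Fits that left out 1 array called between 280 genes (without wild-type cadmium replicate 1) and 785 (without slim1-1 arsenite replicate 1). RNA came from whole seedlings, where fewer cells of a type and less RNA per cell cannot be told apart.

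Among the positive genes the median genotype difference was 0.53 under cadmium and -0.17 under arsenite, and among the negative genes -0.51 and 0.19. The larger of the 2 differences lay under cadmium in 468 of the 574 genes (81.5%), against 60.6% of all genes tested. Over all genes the median size was 0.11 under cadmium and 0.08 under arsenite. Choosing genes by their interaction can therefore raise the 81.5% by itself. The sign of the difference turned between the metals in 458 (79.8%), against 45% of all genes, a share that choosing genes by their interaction raises by itself. The remaining 116 genes kept their sign and changed in size, 106 of them larger under cadmium. Interactions of at least 2-fold were found for 72 positive and 65 negative genes, and of at least 4-fold for 10 and 5. The smallest called interaction was 0.33, beside a median standard error of 0.13 over all genes.

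**Figure D1:**
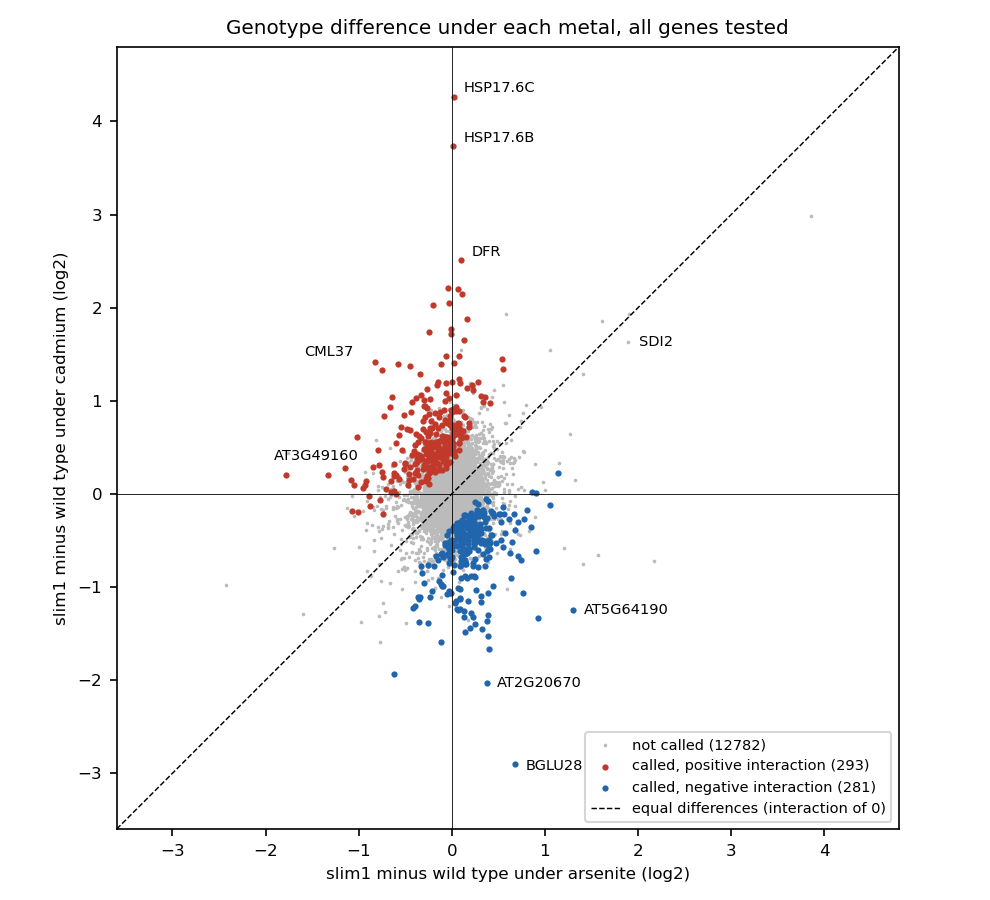
Each point is 1 gene, placed by its slim1-1 minus wild-type difference in log2 units under arsenite (horizontal) and under cadmium (vertical); red and blue points are the 293 positive and 281 negative called genes and the dashed line marks equal differences. Most called genes spread along the vertical axis, HSP17.6C lies at 4.27 under cadmium and 0.02 under arsenite, and SDI2 lies close to the dashed line.

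The largest positive interactions belonged to small heat shock protein genes, whose products are chaperones that hold unfolding proteins in a soluble state. HSP17.6C read 6.95, 7.70 and 7.90 on the slim1-1 cadmium arrays and 3.22, 3.37 and 3.16 on the wild-type cadmium arrays, in log2 units of RMA signal. Under arsenite it read 4.13, 4.14 and 4.73 in slim1-1 and 4.21, 4.46 and 4.26 in wild type. The mutant on cadmium thus stood alone, since the cadmium groups did not overlap and the arsenite groups did. The difference was 4.27 under cadmium and 0.02 under arsenite, an interaction of 4.25 ± 0.30 (SE; limma adjusted p = 3.63e-05). Its group means other than that of slim1-1 on cadmium lay under the lower quartile of their arrays, so the sizes rest on a signal near the low end of its range.

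HSP17.6B, a relative of the same class, followed the same pattern. Its values were 8.44, 9.02 and 9.14 in slim1-1 and 5.06, 5.41 and 4.92 in wild type on cadmium, and 5.22, 5.79 and 4.69 against 5.14, 5.27 and 5.23 on arsenite. Its interaction was 3.72 ± 0.34 (adjusted p = 0.000248), from a 13.4-fold difference on cadmium. HSP26.5 stood at 5.34, 5.80 and 6.53 against 3.64, 3.57 and 3.83 on cadmium, while its 6 arsenite values all lay between 3.58 and 3.76. Those 6 values were under the lower quartile of their arrays. A genotype difference on arsenite was thus measured only near the low end of the signal range. The interaction of HSP26.5 was 2.14 ± 0.30 (adjusted p = 0.00189).

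Fes1A, a co-chaperone of HSP70, had the same form. It read 8.26, 8.70 and 8.59 against 6.49, 6.44 and 6.96 on cadmium, and 6.67, 7.01 and 7.02 against 6.76, 6.71 and 6.74 on arsenite. The interaction was 1.72 ± 0.21 (adjusted p = 0.00077). AT1G71000, the fifth called gene of the heat shock list, had an interaction of 2.08 ± 0.38 (adjusted p = 0.0109). In each of the 5 genes every slim1-1 cadmium array exceeded every wild-type cadmium array, and the arsenite groups overlapped. Genes were chosen by their calls, so such separation, here and for called genes below, is a description and no added support.

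Lists were chosen with earlier results of these data known, so the shares of this list and those below are a description. Of the 35 genes on the heat shock list 13 were measured, 5 were called positive and none negative, beside 2.19% and 2.1% of all genes. Their median interaction was 0.67, beside -0.02 over all genes tested, and 9 of the 13 had an unadjusted p under 0.05, beside 18.5% of all genes. ROF2, an HSP90-binding peptidyl-prolyl isomerase, gave 1.35 but was not called (adjusted p = 0.159); its slim1-1 arsenite arrays read 5.59, 6.85 and 5.02, a wide spread. HSP15.7 (0.56, adjusted p = 0.0791) and AT2G20560 (0.67, adjusted p = 0.126) also missed the threshold. HSP15.4 ran the other way, at -0.84 ± 0.23 (adjusted p = 0.0596), and was not called.

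Genes of late anthocyanin synthesis formed the next group. DFR, dihydroflavonol reductase, which opens the branch to anthocyanins, read 10.31, 10.04 and 8.97 in slim1-1 and 7.04, 7.45 and 7.29 in wild type on cadmium. On arsenite all 6 arrays lay between 4.05 and 4.27, under the lower quartile of the arrays, so a genotype difference there was measured only near the low end of the signal range. The interaction was 2.42 ± 0.35 (adjusted p = 0.00263), from a 5.71-fold difference on cadmium and 1.07-fold on arsenite.

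UF3GT, an anthocyanin glycosyltransferase, read 7.91, 7.62 and 6.77 against 5.30, 5.42 and 4.97 on cadmium, and 5.34, 5.14 and 5.37 against 5.27, 5.38 and 5.33 on arsenite. UGT75C1, which adds glucose at another position of the pigment, read 7.83, 7.57 and 6.65 against 5.16, 5.43 and 5.37 on cadmium, and 4.43, 4.42 and 4.62 against 4.66, 4.71 and 4.71 on arsenite. AT5MAT, a malonyltransferase of anthocyanins, read 6.05, 5.56 and 4.92 against 3.75, 4.11 and 3.71 on cadmium. In all 4 genes, again chosen by their calls, the slim1-1 cadmium arrays lay above wild type without overlap. Replicate 3 was the lowest of the mutant arrays in each. The interactions were 2.25 ± 0.31, 2.24 ± 0.31 and 1.52 ± 0.30 (adjusted p = 0.00189, 0.00189 and 0.0167).

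UGT78D2, a flavonoid glucosyltransferase that also serves other flavonoids, was the only measured member of the anthocyanin list that was not called (0.48, adjusted p = 0.225). Thus 4 of 5 measured members were called, all positive, out of 25 listed, beside 2.19% of all genes called positive. This list too was chosen with earlier results known. The median of the 5 was 2.24, beside -0.02 over all genes. Their median genotype difference was 2.03 on cadmium and 0.10 on arsenite.

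**Figure D2:**
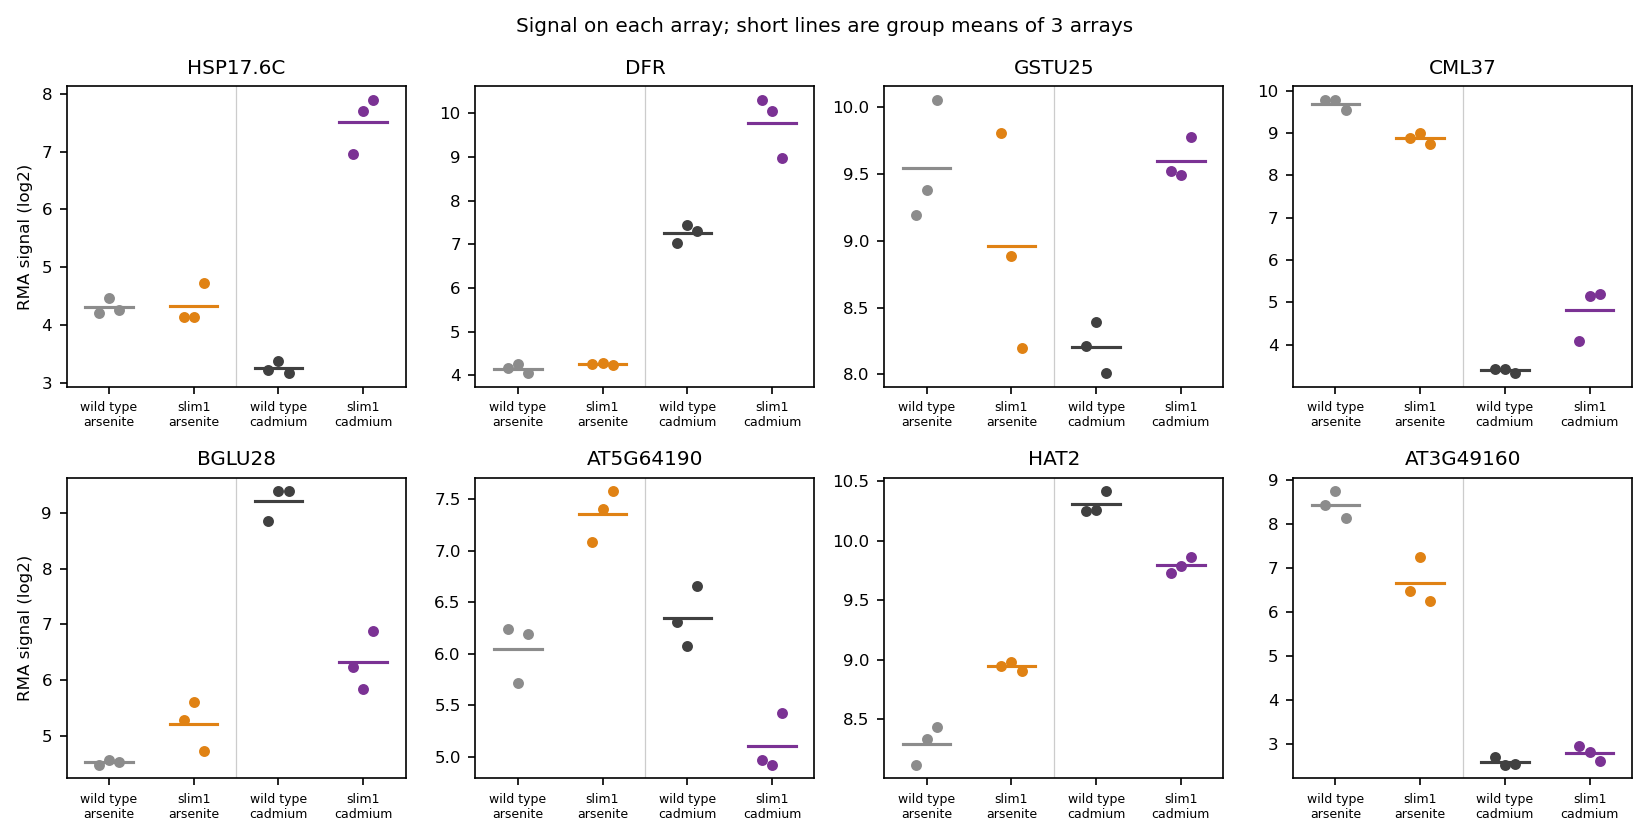
Log2 RMA signal of 8 genes on each of the 12 arrays (points) with the mean of each group of 3 (short lines); levels of the arsenite and cadmium arrays come from separate normalizations and only the step between genotypes is compared. HSP17.6C and DFR separate the genotypes on cadmium alone, AT3G49160 on arsenite alone, and AT5G64190 and HAT2 on both metals in opposite directions.

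Genes that conjugate or reduce foreign and reactive compounds differed in another way, with mutant means above wild type on cadmium and below it on arsenite. GSTU25, a tau-class glutathione transferase, read 9.52, 9.49 and 9.78 in slim1-1 and 8.21, 8.39 and 8.01 in wild type on cadmium, and 9.81, 8.89 and 8.2 against 9.19, 9.38 and 10.06 on arsenite. The cadmium groups were apart and the arsenite groups overlapped widely. The interaction was 1.97 ± 0.45 (adjusted p = 0.0289), made of 1.39 on cadmium and -0.58 on arsenite, where the latter was not called (adjusted p = 0.48).

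AER, an alkenal reductase that removes reactive carbonyls, read 7.69, 8.0 and 7.82 against 6.78, 6.92 and 6.74 on cadmium, and 8.12, 7.99 and 8.72 against 8.31, 9.02 and 8.66 on arsenite (interaction 1.41 ± 0.27, adjusted p = 0.0126). UGT73B4 and UGT73B5, glucosyltransferases of foreign and defence compounds, had interactions of 1.15 ± 0.24 and 0.97 ± 0.20 (adjusted p = 0.018 for each). All 4 measured members of the 19-gene list were called positive, beside 2.19% of all genes, with a median of 1.28 against -0.02 over all genes. The median genotype difference of the 4 was 0.82 on cadmium and -0.48 on arsenite, and none of the 4 arsenite differences was called.

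AER is the only one of these 4 that kept its call under every alternative tried. The call of GSTU25 was lost in 8 of the 12 fits that left out 1 array, and those of UGT73B4 and UGT73B5 in 1 each, without wild-type arsenite replicate 2. The slim1-1 arsenite array of replicate 1 was the highest of its group for GSTU25, UGT73B4 and GSTU26. Without it the interaction of GSTU25 was 2.40 (adjusted p = 0.00179).

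Several of these genes have called neighbours. GSTU26 lies next to GSTU25 and had an interaction of 1.57 ± 0.32 (adjusted p = 0.0187), AT5G16980 next to AER had 2.08 ± 0.42 (adjusted p = 0.0174), and UGT73B4 and UGT73B5 adjoin each other. Whether probe sets of near-identical neighbours detect each other's RNA was not tested. Over the genome 5814 neighbouring pairs had both genes tested, in 20 both were called, and in 15 of these both had the same sign. The tau-class family as a whole gave 2 called positive genes of 11, beside 2.19% of all genes. Its median was 0.34, beside -0.02 over all genes.

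Single positive genes outside these lists included CYP71B26 and CML37. CYP71B26, a cytochrome P450, read 7.60, 7.53 and 7.58 in slim1-1 and 6.32, 6.42 and 6.38 in wild type on cadmium. On arsenite it read 9.16, 9.21 and 9.26 against 9.16, 9.25 and 9.21. The genotypes were 2.3-fold apart on cadmium and level on arsenite (interaction 1.2 ± 0.09, adjusted p = 3.63e-05). It was the only called gene among 26 with a P450 symbol, a share near the 4.3% of all genes, and the median of the 26 was -0.06.

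CML37, a calmodulin-like calcium sensor, stood on opposite sides of wild type on the 2 metals. It read 4.09, 5.15 and 5.2 in slim1-1 against 3.42, 3.43 and 3.33 in wild type on cadmium, and 8.88, 9.0 and 8.74 against 9.79, 9.77 and 9.53 on arsenite. Neither pair of groups overlapped: the mutant was above wild type on cadmium by 1.42 and 0.83 below it on arsenite, though the latter was not called (adjusted p = 0.11). The interaction was 2.24 ± 0.31 (adjusted p = 0.00195). XTH18, a cell wall xyloglucan-modifying enzyme, had the same form, at 0.72 and -0.54 (interaction 1.26 ± 0.17, adjusted p = 0.00189). It and XTH32 (0.45 ± 0.11, adjusted p = 0.042) were the called members among 9 of that family, beside 4.3% of all genes called. The call of XTH32 was lost in 11 of the 12 fits that left out an array and under 4 other alternatives, and that of XTH18 in none.

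AT3G44450 and AT4G33550, loci with no symbol in the tables used, completed the 12 largest positive interactions together with the genes above and AT3G49160 below. AT3G44450 read 5.98, 5.84 and 5.82 against 4.28, 3.98 and 4.17 on cadmium, and 6.78, 7.23 and 6.91 against 7.05, 7.49 and 7.12 on arsenite (interaction 1.98 ± 0.19, adjusted p = 0.000314). AT4G33550 read 8.03, 7.63 and 7.67 against 5.64, 5.99 and 5.28 on cadmium, with overlapping arsenite groups (2.03 ± 0.39, adjusted p = 0.0133).

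LTI30, a dehydrin made in cold and drought, read 9.04, 8.78 and 9.29 against 7.68, 7.96 and 7.62 on cadmium, and 11.37, 11.04 and 10.50 against 11.10, 11.22 and 11.60 on arsenite (interaction 1.62 ± 0.28, adjusted p = 0.00827). It was the 1 called gene of 4 measured on the cold and drought list, beside 4.3% of all genes called. In limma all 4 had a positive interaction with an unadjusted p under 0.05, beside 18.5% of all genes. The median of the 4 was 1.39, beside -0.02 over all genes. COR47 and COR15B gave 0.45 and 1.17 and were not called (adjusted p = 0.0875 and 0.14). COR15A, a cold-regulated chloroplast protein, had a larger value of 2.2 ± 0.72 that was not called (adjusted p = 0.116), with arsenite arrays that ranged from 7.30 to 9.14 in slim1-1 and from 8.93 to 10.29 in wild type. Without slim1-1 arsenite replicate 1 it was 2.76 and passed (adjusted p = 0.0217). That fit called 785 genes, the most of the 12 that left out an array, beside 574 in the main fit. The other fits are not given here for COR15A, which stays not called.

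SAPX, the stromal ascorbate peroxidase of chloroplasts and mitochondria, read 7.36, 7.44 and 7.26 against 6.67, 6.53 and 6.65 on cadmium, and 8.78, 8.88 and 8.87 against 8.91, 9.11 and 8.83 on arsenite. Its interaction was 0.84 ± 0.12 (adjusted p = 0.00199). The thylakoid enzyme TAPX (-0.14, adjusted p = 0.508) and the peroxiredoxin 2CPA (0.01, adjusted p = 0.972) were the other measured members of the antioxidant list and were not called. 12CYS, a marker of mitochondrial stress, was called at 0.79 ± 0.19 (adjusted p = 0.0355), a call lost in 9 of the 12 fits that left out an array, while UPOX and NDB2 were not called.

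**Figure D3:**
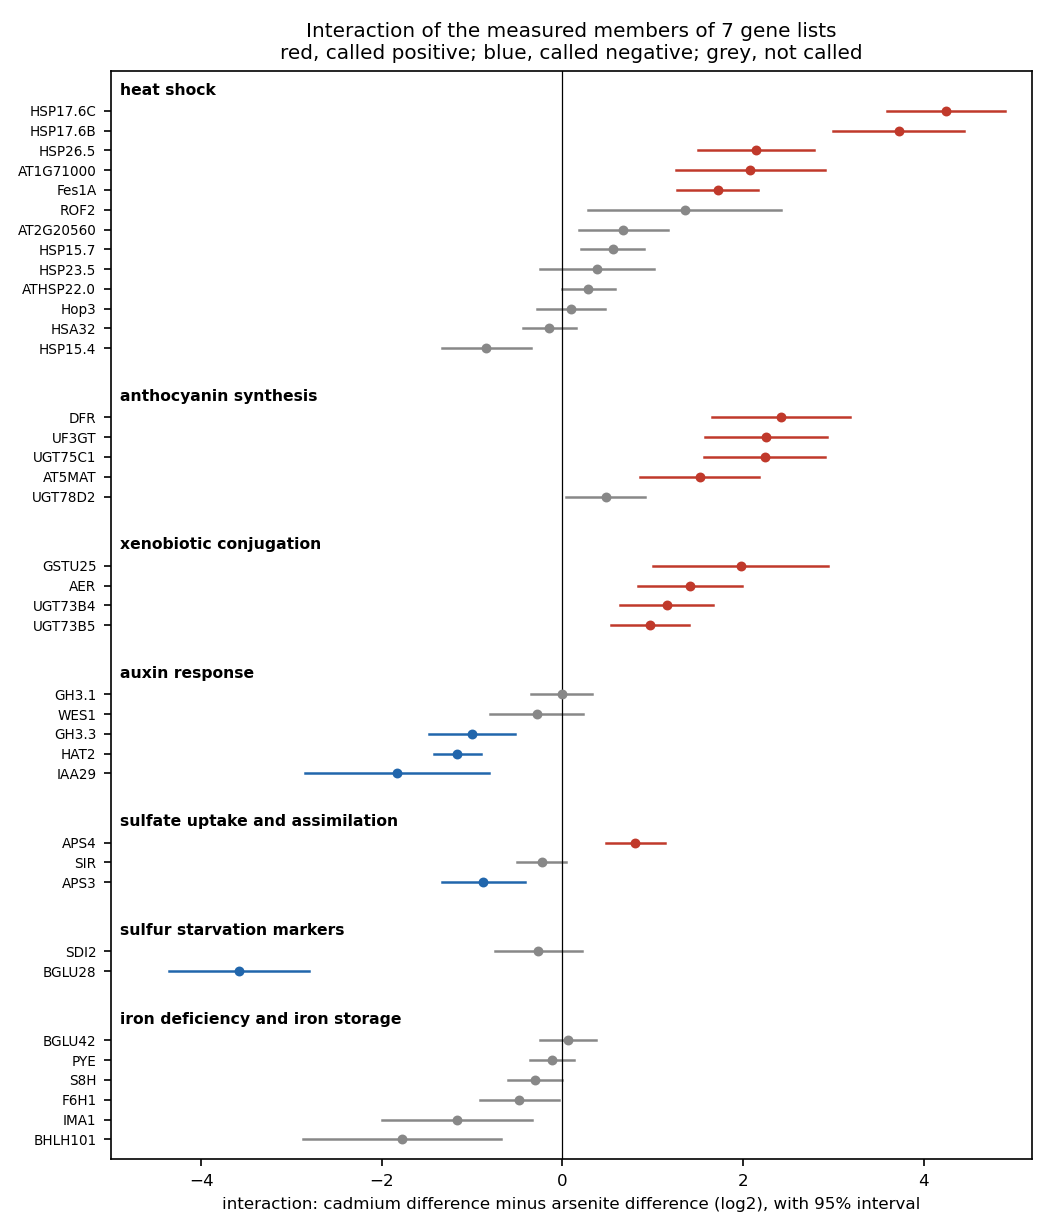
Interaction in log2 units (points) with its 95% interval (lines) for every measured member of 7 gene lists; red is called positive, blue called negative and grey not called. The called heat shock, anthocyanin and xenobiotic genes are all positive, the called auxin genes are all negative, and the sulfur genes lie on both sides of 0.

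The sulfur genes lay on both sides of 0. BGLU28, a beta-glucosidase that sulfur-starved plants induce, had the largest negative interaction of all genes. It read 6.23, 5.83 and 6.88 in slim1-1 and 8.86, 9.39 and 9.39 in wild type on cadmium, and 5.28, 5.6 and 4.71 against 4.48, 4.56 and 4.52 on arsenite. The mutant was thus below wild type on every cadmium array and above it on every arsenite array. The differences were -2.90 (7.46-fold lower) and 0.68 (1.6-fold higher), of which the arsenite difference was not called (adjusted p = 0.27), and the interaction was -3.58 ± 0.36 (adjusted p = 0.000347). The wild-type arsenite mean lay under the lower quartile of its arrays.

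SDI2, another gene induced by sulfur shortage, gave a different picture. It read 9.12, 9.26 and 8.78 in slim1-1 against 7.38, 7.64 and 7.26 in wild type on cadmium, and 10.17, 9.90 and 9.74 against 7.77, 8.23 and 8.12 on arsenite. The mutant was higher on both metals, by 1.63 and 1.89, and the interaction was -0.27 with a 95% interval from -0.75 to 0.22 (adjusted p = 0.59). These were the 2 measured genes of the 11 sulfur starvation markers listed.

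Of the sulfate uptake and assimilation list 3 of 25 genes were measured, and the pair of ATP sulfurylases among them, which activate sulfate, had called interactions of opposite sign. APS3 read 7.64, 7.63 and 7.71 in slim1-1 and 8.57, 8.65 and 7.97 in wild type on cadmium, and 9.29, 9.48 and 9.15 against 9.30, 9.10 and 9.09 on arsenite. APS4 read 8.34, 8.34 and 8.31 against 8.24, 8.25 and 7.93 on cadmium, and 9.88, 10.14 and 10.30 against 10.70, 10.68 and 10.79 on arsenite. APS3 was therefore lower in the mutant on cadmium, and APS4 was lower on arsenite.

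The interaction of APS3 was -0.88 ± 0.21 (adjusted p = 0.0363), a call lost in 8 of the 12 fits that left out an array. That of APS4 was 0.81 ± 0.15 (adjusted p = 0.0122), kept in all of them. SIR, sulfite reductase, had a called difference of -0.39 on cadmium and one of -0.16 on arsenite that was not called, and its interaction of -0.23 had an interval from -0.50 to 0.04 (adjusted p = 0.367). No gene was called among the 4 measured of glutathione, phytochelatin and metal transport genes (medians 0.24 for the interaction, 0.15 on cadmium and -0.02 on arsenite) or among the 4 of glucosinolate synthesis (0.18, -0.21 and -0.15). In those lists 0 and 2 members had an unadjusted p under 0.05.

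Auxin-responsive genes were called with negative interactions. HAT2, an auxin-induced homeodomain-leucine zipper factor, read 9.73, 9.79 and 9.86 in slim1-1 and 10.25, 10.26 and 10.42 in wild type on cadmium, and 8.95, 8.98 and 8.91 against 8.12, 8.33 and 8.44 on arsenite. The mutant lay below wild type on all cadmium arrays and above it on all arsenite arrays. Both differences were called, -0.51 on cadmium (adjusted p = 0.0023) and 0.65 on arsenite (adjusted p = 0.0037), and the interaction was -1.16 ± 0.12 (adjusted p = 0.00039).

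GH3.3, which conjugates auxin to amino acids, read 9.27, 9.19 and 9.29 against 9.87, 9.79 and 9.68 on cadmium, and 6.92, 7.63 and 7.32 against 6.86, 7.04 and 6.55 on arsenite (interaction -1.0 ± 0.22, adjusted p = 0.0243, lost in 3 of the 12 fits that left out an array). IAA29, an auxin response repressor, read 8.49, 8.74 and 9.07 against 9.83, 9.80 and 9.86 on cadmium, and 8.49, 8.04 and 6.69 against 6.78, 6.87 and 7.26 on arsenite. Its interaction of -1.83 ± 0.47 (adjusted p = 0.0481) was near the threshold, neither genotype difference was called, and the call was lost in 11 of the 12 fits that left out an array. GH3.1 and WES1, further conjugating enzymes, gave -0.01 and -0.29 and were not called. Thus 3 of 5 measured genes were called, of 10 listed, beside 2.1% of all genes called negative, with a median of -1.0.

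The 9 genes called under both metals in opposite directions include HAT2. AT5G64190 had the largest of these changes. It read 4.97, 4.92 and 5.42 in slim1-1 and 6.31, 6.08 and 6.66 in wild type on cadmium, and 7.08, 7.40 and 7.58 against 6.24, 5.72 and 6.19 on arsenite. It was 2.37-fold lower in the mutant on one metal and 2.47-fold higher on the other, an interaction of -2.55 ± 0.27 (adjusted p = 0.00039).

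AT5G61590, whose RefSeq synonym is DEWAX, a repressor of wax synthesis genes, read 9.15, 8.91 and 9.06 against 9.78, 9.54 and 9.92 on cadmium. On arsenite it read 10.89, 11.07 and 11.26 against 10.30, 10.34 and 10.34, so both pairs of groups were apart, with the mutant lower on cadmium and higher on arsenite (interaction -1.46 ± 0.15, adjusted p = 0.00039). The loci AT3G26510, AT1G26390, AT2G24240 and AT1G74940 changed the same way, with interactions of -1.54, -1.51, -1.26 and -0.99. AT3G62260 and AT3G23170 were the 2 with the reverse order, higher in the mutant on cadmium by 0.69 and 0.84 and lower on arsenite by 0.49 and 0.51.

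AT3G23170 illustrates the range of levels on which such differences were measured. It read 4.35, 4.56 and 4.12 against 3.5, 3.40 and 3.59 on cadmium, and 9.45, 9.61 and 9.47 against 10.06, 10.02 and 9.99 on arsenite. Within each metal the genotypes did not overlap in any of the 9 genes, which choosing them by both calls makes likely. All 9 kept their interaction call in every alternative tried.

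**Figure D4:**
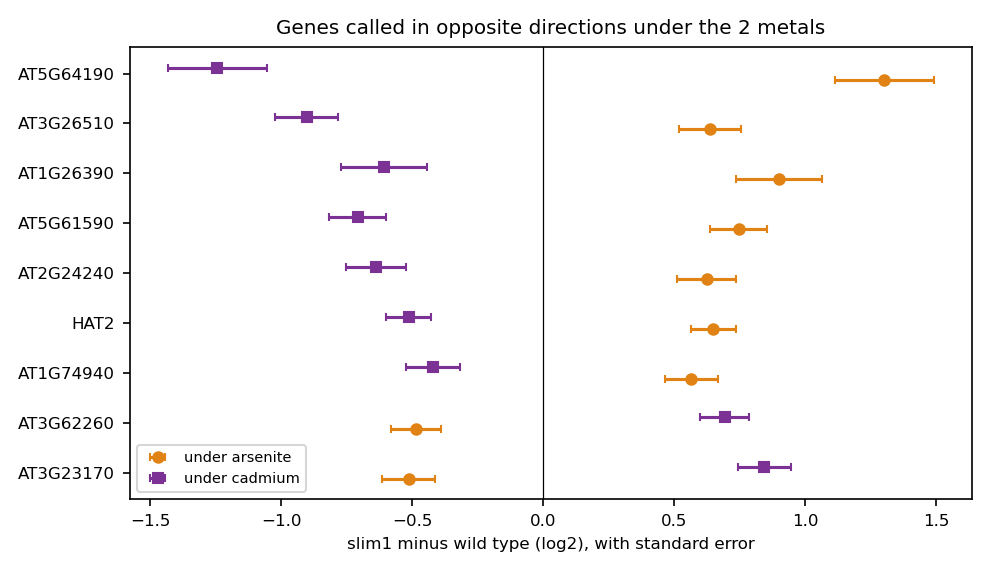
Slim1-1 minus wild-type difference in log2 units with its standard error for the 9 genes called under both metals in opposite directions; circles are arsenite and squares cadmium. In 7 genes the mutant is lower on cadmium and higher on arsenite, AT5G64190 being the widest at -1.24 and 1.3, and in AT3G62260 and AT3G23170 the order is reversed.

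Most of the other large negative interactions lay in genes with no symbol in the tables used, and several shared 1 form. AT2G20670 read 8.45, 8.48 and 8.79 in slim1-1 and 10.64, 10.32 and 10.86 in wild type on cadmium, and 11.59, 11.52 and 11.78 against 11.21, 11.05 and 11.49 on arsenite. AT2G25200 read 7.21, 6.98 and 7.06 against 8.69, 8.48 and 9.08 on cadmium, and 9.36, 9.66 and 9.74 against 9.26, 9.04 and 9.24 on arsenite. Both were lower in the mutant on every cadmium array and higher on every arsenite array, though only the cadmium differences of -2.03 and -1.67 were called. AT3G60270, AT2G37950, AT4G19160, AT3G07350 and AT4G28290 had the same arrangement, with interactions from -1.92 to -1.64. AT4G27450 was also lower on every cadmium array, but its arsenite groups overlapped (-1.63 ± 0.23, adjusted p = 0.00238). AT1G72060 stood at -2.26 ± 0.53 (adjusted p = 0.0343), but its wild-type arsenite arrays read 8.58, 6.77 and 7.80 and the call was lost in 9 of the 12 fits that left out an array.

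CHX16, a cation/proton exchanger, read 5.81, 5.86 and 6.25 against 7.04, 6.93 and 7.04 on cadmium, and its arsenite groups overlapped (interaction -1.28 ± 0.19, adjusted p = 0.00263). It was the 1 called gene of 7 in its family, beside 4.3% of all genes called. WRKY22, a defence transcription factor, had negative genotype differences of unequal size, -1.04 on cadmium and -0.21 on arsenite, of which the latter was not called. Its arrays read 5.25, 5.29 and 5.41 against 6.40, 6.25 and 6.42, and 9.83, 9.70 and 10.02 against 10.23, 9.96 and 10.01 (interaction -0.83 ± 0.14, adjusted p = 0.00606). ORA47, a regulator of jasmonate synthesis, had a similar form at -1.11 and -0.23 (interaction -0.87 ± 0.22, adjusted p = 0.0438), lost in 10 of the 12 fits that left out an array.

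BZIP61 and BZIP34, closely related leucine zipper factors measured by separate probe sets, had matching values. Each had a called difference of -0.65 on cadmium and one of -0.11 on arsenite that was not called, with an interaction of -0.54 (SE 0.10 and 0.11, adjusted p = 0.0144 and 0.017). They were the 2 called genes among 14 of the family, beside 4.3% of all genes called. Of the 14 genes 10 had a positive interaction, and the median was 0.09. Whether the probe set of either gene detects the RNA of the other was not tested. bHLH121, a regulator of iron homeostasis, was called at -0.60 ± 0.14 (adjusted p = 0.0343), lost in 7 of the 12 fits that left out an array. The 6 measured genes of the iron list had a median interaction of -0.39, beside -0.02 over all genes, and 1 was positive. In limma 4 of the 6 had an unadjusted p under 0.05, beside 18.5% of all genes. None of the 6 was called. BHLH101, an iron deficiency factor, came nearest at -1.78 ± 0.51 (adjusted p = 0.0738), with slim1-1 arsenite arrays at 7.67, 6.35 and 6.74 against 5.15, 5.37 and 6.64 in wild type.

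Families held called genes on both sides. Among 20 beta-glucosidases 4 were positive and 2 negative, beside 2.19% and 2.1% of all genes, with BGLU44 at 1.08 ± 0.12 (adjusted p = 0.000406), BGLU47 at 0.69, BGLU27 at 0.61, and BGLU16 at -0.64 beside BGLU28. BGLU44 read 8.59, 8.78 and 8.71 against 7.60, 7.85 and 7.62 on cadmium, and 11.31, 11.37 and 11.35 against 11.34, 11.39 and 11.52 on arsenite. Of 49 glycosyltransferases of the UGT family 4 were positive and 2 negative, beside the same shares of all genes, the negative ones being UGT85A4 at -0.85 ± 0.13 (adjusted p = 0.00403) and UGT85A5 at -0.55 ± 0.12 (adjusted p = 0.0289), lost in 7 of the 12 fits that left out an array. BGLU27 and BGLU16 lie next to each other on the chromosome and had opposite signs.

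Of the 65 families formed by symbol, 37 had no called member, 20 had 1 and 8 had more. These count families of several genes each, so they cannot be compared with the 4.3% of single genes called. MSRB6, a methionine sulfoxide reductase that repairs oxidised methionine, read 9.29, 9.40 and 9.51 against 10.25, 10.22 and 10.23 on cadmium, and 10.57, 10.58 and 9.90 against 10.20, 10.37 and 10.44 on arsenite (interaction -0.85 ± 0.21, adjusted p = 0.04, lost in 10 of the 12 fits that left out an array). It was 1 of 4 measured in its family. The mitochondrial transcript of nad6, a subunit of respiratory complex I, read 4.25, 4.32 and 5.01 against 3.88, 3.35 and 3.3 on cadmium (1.31 ± 0.28, adjusted p = 0.0234, lost in 4 of those 12 fits), the 1 called of 8, although its arsenite means lay under the lower quartile of their arrays.

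TBL37, of a family of wall polysaccharide acetyltransferases, read 8.10, 7.97 and 8.05 against 8.89, 8.88 and 8.64 on cadmium (interaction -0.79 ± 0.17, adjusted p = 0.0227), while TBL15 of the same 22 genes gave 0.45 ± 0.11 (adjusted p = 0.0336). Their calls were lost in 3 and 6 of the 12 fits that left out an array. The cellulase relative GH9C2, the subtilase SBT1.3 and the ubiquitin-conjugating enzyme UBC29 were positive at 0.70, 0.65 and 0.63, calls lost in 9, 8 and 4 of those 12 fits. Each was higher in the mutant on every cadmium array and overlapped with wild type on arsenite.

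The 68 genes with neither difference called had smaller interactions, of median size 0.575, and 2 of them kept the call in every alternative tried. OTP81, an organelle RNA editing factor, belongs to the 68, at -0.22 on cadmium and 0.51 on arsenite (interaction -0.72 ± 0.19, adjusted p = 0.0484, lost in 11 of the 12 fits that left out an array). By comparison 166 of the 451 cadmium genes and 20 of the 46 arsenite genes kept the call in every alternative.

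Genes whose genotype difference was called under arsenite alone numbered 46, with 31 positive interactions, in which the mutant was lower on arsenite, and 15 negative. AT3G49160 had the largest. It read 6.47, 7.25 and 6.24 in slim1-1 and 8.43, 8.74 and 8.13 in wild type on arsenite, and 2.95, 2.82 and 2.60 against 2.69, 2.52 and 2.55 on cadmium. The mutant was 3.43-fold lower on arsenite (interaction 1.98 ± 0.30, adjusted p = 0.00333), while both cadmium means lay under the lower quartile of their arrays. In 6 of the 46 genes both cadmium means were that low, and in 26 of the 451 cadmium genes both arsenite means were.

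PUB19, a U-box ubiquitin ligase, read 8.42, 8.49 and 7.80 against 8.97, 9.33 and 9.20 on arsenite, and 5.39, 5.51 and 5.53 against 5.37, 5.58 and 5.19 on cadmium. Its interaction was 1.03 ± 0.23 (adjusted p = 0.027), lost in 5 of the 12 fits that left out an array. PUB19 was the 1 called gene of 9 in its family, beside 4.3% of all genes called. PDF2.1, of the plant defensin family, read 8.56, 7.37 and 7.37 against 8.74, 9.47 and 9.10 on arsenite, with its cadmium groups overlapping between 4.94 and 5.63. Its interaction was 1.53 ± 0.39 (adjusted p = 0.0466), lost in 10 of the 12. APS4, described above, belongs to these arsenite genes.

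The share of genes called rose with signal, from 0.18% to 3.62%, 5.72% and 7.67% over 4 equal groups of genes ordered by mean level. By chromosome it ran from 3.78% to 4.69%, and none of 69 plastid-encoded genes was called (median interaction -0.01). Of 6 called genes with another probe set, 4 had the same sign there, and SDH2-1 was one of the exceptions, at 0.50 and -0.02, and its call was lost in 10 of the 12 fits that left out an array.

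Marker lists were set beside the interaction as a partial view of tissue composition, which was itself not tested. The 7 measured nuclear photosynthesis genes had interactions from 0.04 to 0.16 and none was called. The root hair expansins EXPA7 and EXPA18, the 2 measured of 10 root markers, gave 0.40 and 0.53 and were not called (adjusted p = 0.414 and 0.361). The 1 measured of 3 guard cell and epidermis markers gave 0.10, from -0.32 on cadmium and -0.42 on arsenite, and was not called. No seed or cell division marker was among the genes tested.

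Array quality was set beside the interaction in the same way. Array medians lay between 6.85 and 6.94 on arsenite and between 5.58 and 5.64 on cadmium, and the interaction of the array median was 0.002. The 3′ minus 5′ difference of the GAPDH control had an interaction of 0.18 (exact permutation within metals, two-sided p = 0.01, adjusted over 9 controls 0.09), and that of an older actin control 0.37 (p = 0.045, adjusted 0.124). The newer and older ubiquitin controls went the other way, at -0.15 and -0.12 (exact permutation within metals, two-sided p = 0.055 for each, adjusted 0.124). The older GAPDH control and the newer actin control gave 0.07 and 0.10. The smallest p this design allows is 0.005, and the part of RNA quality in the results was not tested.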

How the data were processed

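Whole-seedling RNA was measured on 12 Affymetrix arrays, and the deposited table holds log2 values made by the authors with RMA, per the submitters' processing notes, with version and annotation not given in the sources used here. Array medians show that the arsenite and cadmium sets were normalized separately by the authors (the step was -1.28), and this step cancels in the interaction. GEO's platform annotation named 1 gene for 13513 of 22746 probe sets other than 64 controls, several genes for 503 and none for 8730. With the brightest probe set per gene, 13356 genes were tested, 13286 of them matched to RefSeq (TAIR10.1). No filter on level was applied.

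The 4 group means were fitted to the log2 values of all 12 arrays together (limma 3.58.1, R 4.3.3), with moderated two-sided tests and Benjamini-Hochberg adjustment over all genes at 0.05. The method was tested on simulated data. Errors are standard errors of the fit. The number of arrays limits the precision.

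Genes, gene lists (24 lists with 373 entries, 72 measured) and families (by the start of the symbol) were chosen with earlier results of these data known, so no list is independent evidence. Genes to name were the 12 largest called interactions in each direction, genes called in opposite directions, up to 5 called and 3 other members of each list or family of at least 4 with a called member, and the sulfur lists; some family members are left out of the text. Symbols of list members with none in the tables come from hand-written lists. Replicate numbers were not used as pairs in the main fit. Same-numbered arrays within a metal had residual correlations from -0.33 to 0.10, and whether they shared a batch was not tested. Alternatives covered scaling, level, probe sets, spread, weights, replicate blocks and each array left out.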

Additional observations from a re-analysis of the deposited data

Results flagged for a closer look

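The genotype difference itself differed between the metals, by the test of the interaction, in 574 of 13356 genes. In 9 of these it was called on both metals in opposite directions. The interactions of those 9, on the log2 scale and each past the limma threshold over all genes, were as follows. Negative values, with slim1-1 lower than wild type on cadmium and higher on arsenite in all 3 replicates, were -2.55 for AT5G64190, -1.54 for AT3G26510, -1.51 for AT1G26390, -1.46 for AT5G61590, -1.26 for AT2G24240, -1.16 for HAT2 and -0.99 for AT1G74940. Positive values, in the reverse order, were 1.18 for AT3G62260 and 1.36 for AT3G23170. Of the 574 calls 197 were kept under every alternative tried, among them these 9.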

How the results depend on the processing

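The main counts were 574 genes for the interaction, 293 positive and 281 negative, with 1646 for the genotype difference on cadmium and 140 on arsenite. Over all probe sets they were 1179, 601, 578, 3227 and 296, where more features were tested. With array weights the first 3 were 1184, 601 and 583, and the arsenite count was 744. With a replicate block within each metal they were 267, 128, 139, 1019 and 85, and 253 of the 267 were shared with the main calls; a block over all groups gave 438. Each group held replicates numbered 1 to 3, and whether same-numbered arrays shared a batch was not tested. Scaling arrays to 1 median absolute deviation raised the arsenite count to 216. For the changes under weights, blocks and scaling the cause was not tested.

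Leaving out 1 array gave 280 to 785 genes for the interaction, 140 to 434 positive, 133 to 351 negative, 851 to 1794 on cadmium and 50 to 250 on arsenite. The interaction count moved by over 1.5 times without slim1-1 arsenite replicate 2 (329), wild-type arsenite replicates 2 (281) and 3 (334), slim1-1 cadmium replicate 2 (311), and wild-type cadmium replicates 1 (280) and 3 (348). Without an array, 1 arm holds 2 samples and the spread is pooled over groups.

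Of 175 named genes 77 were called and 45 of these kept the call in every alternative; no interaction reversed. The 5 heat shock and 4 anthocyanin calls were all kept, as was 1 of the 4 xenobiotic and 1 of the 3 auxin calls. In 46 called genes at least 1 group mean lay under the lower quartile of its arrays. The last genes inside the threshold had an adjusted p of 0.0494 (AT1G68400, AT1G58110 and AT3G15590) and the next outside 0.0505 (AT3G20820). Common scaling of all 12 arrays called 554 genes by median and 532 by quantiles.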

Other observations

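Some called genes with a symbol stand outside the lists and families above; they were chosen after their values were seen. STZ, a zinc-finger stress regulator, read 7.83, 8.39 and 8.22 in slim1-1 against 6.98, 6.99 and 6.87 in wild type on cadmium, and 12.84, 12.83 and 12.74 against 13.00, 12.90 and 12.96 on arsenite. Its interaction was 1.35 ± 0.16 (limma adjusted p = 0.00071). The mutant was higher than wild type on every cadmium array, and on arsenite it was lower on every array by a margin that was not called. BETA-VPE, a vacuolar processing protease, read 6.82, 6.92 and 6.72 against 5.25, 5.50 and 5.27 on cadmium, and 5.75, 5.56 and 5.47 against 5.31, 5.73 and 5.51 on arsenite (1.40 ± 0.16, adjusted p = 0.000519).

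APL3, a large subunit of ADP-glucose pyrophosphorylase in starch synthesis, read 6.71, 6.39 and 6.29 against 5.31, 5.55 and 5.12 on cadmium, with an interaction of 0.98 ± 0.18 (adjusted p = 0.0109). TMT2, a vacuolar sugar transporter, had 0.68 ± 0.15 (adjusted p = 0.0278), a call lost in 7 of the 12 fits that left out an array. AKINBETA1, a subunit of the energy-sensing SnRK1 kinase, read 8.35, 8.18 and 8.59 against 9.33, 9.10 and 9.73 on cadmium and was level on arsenite (-1.08 ± 0.21, adjusted p = 0.0131). In all 3 genes the arsenite groups overlapped.

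MGL, methionine gamma-lyase, which degrades a sulfur amino acid, read 7.18, 7.32 and 7.33 in slim1-1 against 7.98, 7.94 and 7.90 in wild type on cadmium, and 7.35, 7.58 and 7.72 against 7.42, 7.58 and 7.79 on arsenite. Its interaction was -0.61 ± 0.15 (adjusted p = 0.0382), lost in 10 of those 12 fits. Among genes called on arsenite alone with the mutant higher there, BRH1, a RING finger gene responsive to brassinosteroid, read 9.37, 9.37 and 9.55 against 8.72, 8.81 and 9.13 on arsenite (-0.69 ± 0.14, adjusted p = 0.0185, lost in 3 of the 12). XERICO, a RING finger gene linked to abscisic acid, gave -0.46 ± 0.12 (adjusted p = 0.0451), lost in 10 of the 12 and under both replicate blocks.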
